A study of Mus musculus with 10 samples.

Results

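The 10 genes described here encode ligands and receptors of the vascular endothelial growth factor (VEGF) and platelet-derived growth factor (PDGF) families. They were chosen by name, as Vegfa, Vegfc, Kdr, Flt1, Nrp1 and Nrp2 of the VEGF family and Pdgfa, Pdgfc, Pdgfra and Pdgfrb of the PDGF family, and are 10 of the 50600 genes quantified. VEGF ligands are secreted proteins that bind receptor tyrosine kinases on endothelial cells and drive vessel growth, with the neuropilins as co-receptors. PDGF ligands bind receptor tyrosine kinases that are typical of fibroblasts and of the mural cells around vessels, where they drive division and migration. Fibroblasts are thus known as a source of VEGF and a responder to PDGF, and fibroblasts lose much of their expression programme when they are reprogrammed to induced pluripotent stem cells.

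The study asked how the forkhead transcription factor FoxO6 alters reprogramming of mouse embryonic fibroblasts (MEFs). MEFs of the strain CBA/CaJ X C57BL/6J, taken from embryos at E13.5, were infected with retrovirus made in the packaging line PlatE. By the methods, the cells carried an Oct4-GFP reporter. Both arms received Oct4, Klf4 and Sox2 (OKS). One arm also received DsRed, a red fluorescent protein that served as the control and that the labels write as DR, and the other also received FoxO6. Both were grown in iCD1, a medium for induction, and whole cultures were sampled on days 0, 1, 3, 5 and 7. There was 1 RNA-seq library per arm and day, 10 in all, so no day has replicates and all days of one arm may stem from a single infected culture. Nothing in the labels says how many embryos the cells came from or how many cells each virus reached.

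Each library held between 1208379 and 2225750 reads assigned to genes, with a median of 1601151, which is shallow for genes of low level. Foxo6 was checked first. It stood between 0.61 and 2.29 TPM (a level scaled by transcript length and by depth, so that every library has the same total) in the DsRed arm and between 762 and 1356 TPM in the FoxO6 arm. Every library thus matched the arm in its label, while the day in the label was not checked. Foxo6 already stood at 1017 TPM in the FoxO6 arm on day 0, so day 0 is no untreated starting point for that arm. The fibroblast markers were present on day 0 in both arms, with a summed level over 12 genes of at least 3120 TPM in any library. Of 18 markers of endothelial cells, which use most of the VEGF receptors in the embryo, Tek (16.8 to 104 TPM over the 10 libraries) and Cd34 (31.6 to 171 TPM) were plainly present and many others were at or near 0. Pecam1, Cdh5, Tie1, Emcn, Etv2, Tal1 and Sox17 had between 0 and 18 reads each in the DsRed arm and between 0 and 7 in the FoxO6 arm. Sox17 was at 0 in all 10 libraries.

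The promoters of Kdr and Vegfa, the members with the largest arm differences, and of the PDGF receptor Pdgfra, a neighbour of Kdr, are shown because forkhead factors bind DNA at promoters and enhancers. RefSeq windows (GRCm38.p6) were available for 9 of the 10 genes, 11 windows in all, with none used for Pdgfrb. Each window printed runs from 250 to 11 bases before the RefSeq start, 5′ to 3′ on the strand of the gene, with GC boxes (GGGCGG or its reverse CCGCCC, a motif known to bind Sp factors) in capitals. The Kdr window lies at chr5:75978466-75978705 on the minus strand, the Vegfa window at chr17:46032388-46032627 on the minus strand and the Pdgfra window at chr5:75152001-75152240 on the plus strand.
Kdr: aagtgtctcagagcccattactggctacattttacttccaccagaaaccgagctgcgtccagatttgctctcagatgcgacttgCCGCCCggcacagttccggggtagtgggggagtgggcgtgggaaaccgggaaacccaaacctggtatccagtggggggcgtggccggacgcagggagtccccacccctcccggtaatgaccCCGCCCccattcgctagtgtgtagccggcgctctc
Vegfa: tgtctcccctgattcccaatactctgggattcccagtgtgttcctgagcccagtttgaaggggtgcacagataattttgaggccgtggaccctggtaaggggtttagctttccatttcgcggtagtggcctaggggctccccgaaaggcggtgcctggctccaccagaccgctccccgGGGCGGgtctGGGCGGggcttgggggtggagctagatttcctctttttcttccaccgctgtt
Pdgfra: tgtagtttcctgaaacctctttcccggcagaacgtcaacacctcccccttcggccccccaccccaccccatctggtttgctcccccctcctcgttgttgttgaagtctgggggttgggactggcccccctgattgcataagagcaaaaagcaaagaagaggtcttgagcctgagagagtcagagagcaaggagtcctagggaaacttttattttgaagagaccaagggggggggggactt
The forkhead core GTAAACA, read on both strands, was in 0 of the 11 windows and in 3.06% of 32851 promoter windows of the same length. A forkhead variant, TGTTTGC, was in 0 of the 11 and in 4.17% of all. The core of the hypoxia response element, ACGTG, was in 1 of the 11, an internal start of Vegfa, and in 15.9% of all. GC boxes were in 9 of the 11 windows and in 31.3% of all, and this motif was chosen after the windows had been seen. The Kdr and Vegfa windows have 2 GC boxes each and the Pdgfra window has 0. Matches to letters in so short a window describe the sequence and do not show binding or its absence.

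Across the 5 days, 5 of the 10 genes differed between the arms, against 13.5% of the 12212 genes tested. Kdr and Pdgfra were higher with FoxO6, 2 genes against 6.63% of all, and Vegfa, Nrp2 and Pdgfa were lower, 3 genes against 6.89%. These calls come from edgeR's quasi-likelihood test with arm and day as terms and Benjamini-Hochberg adjusted p under 0.05, called the arm shift below. The median log2 fold change was -0.26 over the 10 genes and -0.02 over all genes tested. The members and the gene lists below were chosen with earlier results of these data known. Their counts beside the shares of all genes, here and below, are thus descriptive and test no enrichment. The p-values describe these 2 courses and the scatter of the arm difference over the days, not separate infections. In bulk RNA, fewer cells of a type and less RNA per cell cannot be told apart, and this touches every value that follows.

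**Figure D1:**
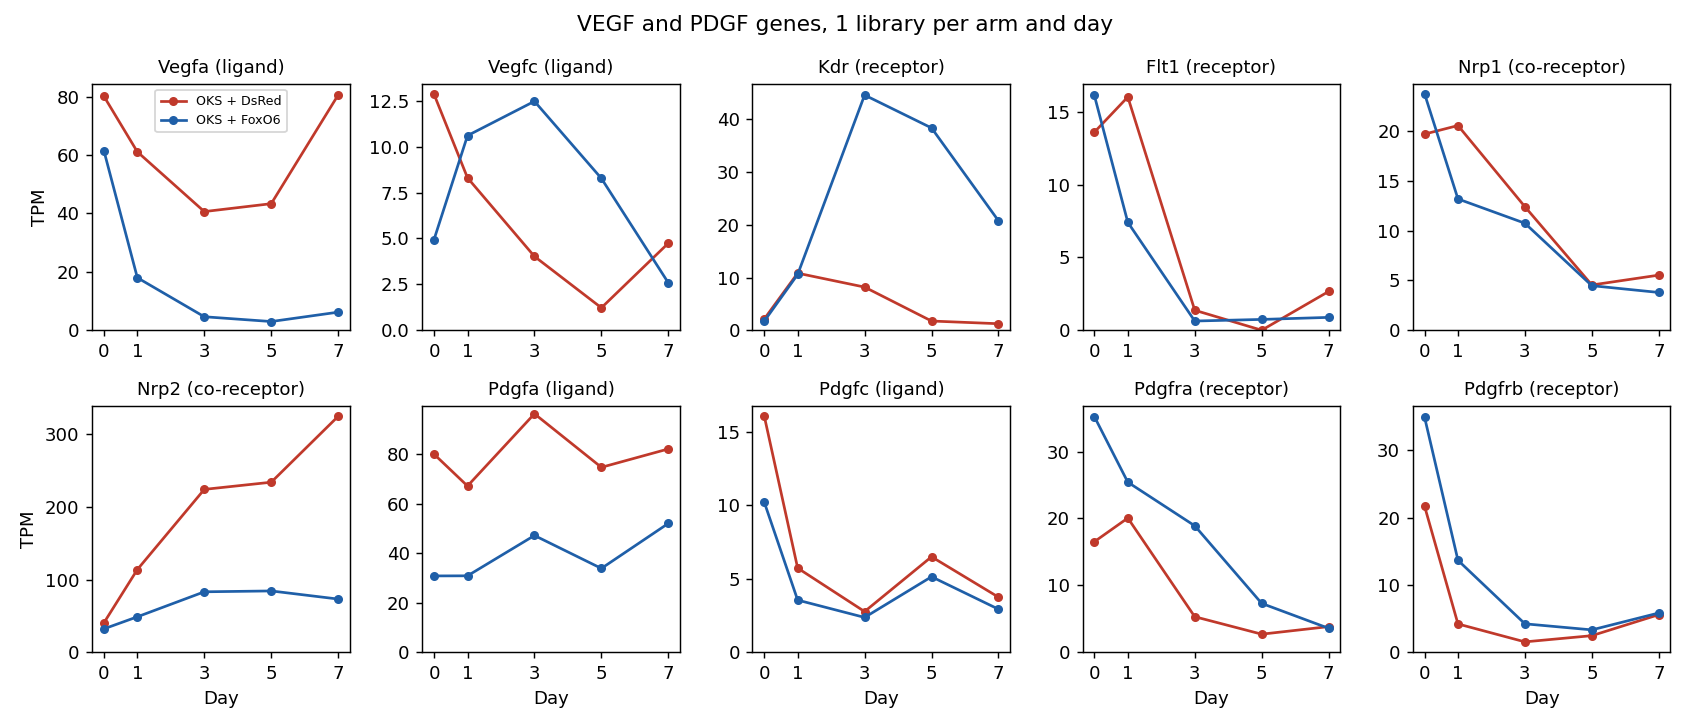
Level of each of the 10 genes in TPM (y axis, from 0, a separate scale per panel) against day (x axis), with 1 point per library, OKS + DsRed in red and OKS + FoxO6 in blue. The Vegfa, Nrp2, Pdgfa and Pdgfc points of the FoxO6 arm lie below those of the DsRed arm on all 5 days, the Pdgfrb points lie above on all 5, and the Kdr courses part after day 1.

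Vegfa, the main ligand for vessel growth, lay at bases 46016993 to 46032369 of chromosome 17 (minus strand) (gene coordinates here are those of GENCODE M21 on GRCm38). It stood at 80.2, 61.1, 40.6, 43.4 and 80.6 TPM on days 0, 1, 3, 5 and 7 in the DsRed arm. In the FoxO6 arm it stood at 61.5, 18.0, 4.61, 2.97 and 6.18 TPM on the same days. In TPM the control course was lowest on days 3 and 5 and on day 7 was back at its day 0 level. The FoxO6 course was low from day 3 on, and from day 1 on every FoxO6 value lay below every control value. The effective length that scales TPM was 2608, 1248 and 1684 bases in the control on days 0, 3 and 5, with 135, 37 and 50 reads. The control dip was thus deeper in share of reads than in TPM. On day 5 the length was 2986 bases with FoxO6, and the arms differed 14.6-fold in TPM. Counted as a share of each library's reads, the DsRed level was 1.52-fold higher on day 0 (95% interval 1.2 to 1.92), 2.71-fold on day 1 (1.75 to 4.28), 6.27-fold on day 3 (2.87 to 15.6), 8.43-fold on day 5 (4.1 to 19.5) and 12.1-fold on day 7 (6.93 to 23.2). These intervals are exact Clopper-Pearson ones and, like all intervals on folds given here, cover counting error only. The arm shift was -2.0 on the log2 scale (SE 0.37, adjusted p = 0.00596, edgeR). The gap on day 7 rested on 189 reads in the control library and 13 in the FoxO6 library.

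Vegfc, the ligand best known for growth of lymphatic vessels, lay at bases 54077606 to 54187096 of chromosome 8 (plus strand). Its level was 12.9, 8.3, 4.02, 1.22 and 4.74 TPM in the DsRed arm and 4.94, 10.6, 12.5, 8.27 and 2.58 TPM in the FoxO6 arm. In TPM the FoxO6 libraries were the higher ones on days 1, 3 and 5 and the lower ones on days 0 and 7. On day 1 the direction turned in share of reads, which was 0.801-fold with FoxO6 (0.351 to 1.8) from 15 reads in the control and 13 with FoxO6. Few reads lie behind these levels, from 2 to 29 per library. On day 3 the share of reads was 3.06-fold higher with FoxO6 (1.31 to 8.27) and on day 5 it was 6.59-fold higher (1.6 to 58.2), the latter from 2 and 20 reads. On day 0 the TPM values differed 2.6-fold while the shares of reads, from 10 and 13 reads, differed 1.42-fold with an interval of 0.556 to 3.5. The effective length that scales TPM was 1205 bases in the control library of day 0 and 2383 bases in the FoxO6 one. The Vegfc arm shift came to 0.40 (SE 0.50, adjusted p = 0.67, edgeR), which did not pass.

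As a share of the summed TPM of Vegfa and Vegfc, the VEGF ligands among the members, Vegfa made up between 86.2% and 97.3% in the DsRed arm. In the FoxO6 arm its share was 92.6% on day 0, 62.9% on day 1, 27.0% on day 3, 26.4% on day 5 and 70.5% on day 7. Vegfc was thus the more abundant of the pair on days 3 and 5 of the FoxO6 course and on no day of the control course. The summed TPM of the pair was 44.6 to 93.0 in the DsRed arm and was 66.5 on day 0 and 8.76 on day 7 in the FoxO6 arm. This sum leaves out the other VEGF family ligands. On day 7 Vegfb and Vegfd stood at 109.65 and 82.59 TPM in the FoxO6 arm and at 50.15 and 9.45 TPM in the DsRed arm.

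Kdr encodes VEGF receptor 2, the main signalling receptor for Vegfa on endothelial cells, and lay at bases 75932827 to 75978458 of chromosome 5 (minus strand). Its level was 2.11, 10.8, 8.18, 1.74 and 1.23 TPM on days 0, 1, 3, 5 and 7 in the DsRed arm. In the FoxO6 arm it was 1.7, 10.6, 44.6, 38.4 and 20.8 TPM. Both arms had like values on days 0 and 1, after which the control values were lower again and the FoxO6 values were highest on day 3. The share of reads differed by 0.982-fold on day 1 (0.649 to 1.49), by 5.36-fold on day 3 (3.75 to 7.86), by 21.5-fold on day 5 (10.3 to 54.0) and by 18.6-fold on day 7 (8.75 to 47.5). In reads, days 3, 5 and 7 had 35, 7 and 7 in the control and 254, 228 and 109 with FoxO6. The arm shift was 2.20 (SE 0.57, adjusted p = 0.0301, edgeR). Without day 3 the shift was 2.09 and the adjusted p 0.126, and without day 5 they were 1.68 and 0.134, so the call was lost. Leaving out these days also lowered the calls over all genes, from 1651 to 773 and 705. With DESeq2 the adjusted p was 0.0938.

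The endothelial markers are set beside Kdr here. Over the 18 genes of that list the summed level was 143 to 235 TPM in the DsRed arm and 97.2 to 148 TPM in the FoxO6 arm, and most of it came from Tek and Cd34. Without those 2 genes the sum was 7.92 to 31.0 TPM and 4.97 to 22.2 TPM. Only 3 of the 18 genes had enough reads to be tested. Tek, an angiopoietin receptor, stood between 16.8 and 47.3 TPM in the DsRed arm and between 27.6 and 104 TPM in the FoxO6 arm and was higher (log2 fold change 0.96, SE 0.13, adjusted p = 0.0012, edgeR). Cd34, which MEFs also express, stood between 95.5 and 171 TPM and between 31.6 and 47.4 TPM and was lower (log2 fold change -1.93, SE 0.18, adjusted p = 0.000153, edgeR). Like Kdr, Tek had its highest values in the FoxO6 libraries of days 3 and 5. The part of endothelial cells in the Kdr level was not tested.

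Flt1 encodes VEGF receptor 1, known as a decoy that binds Vegfa tightly and signals weakly, and lay at bases 147561604 to 147726011 of chromosome 5 (minus strand). It stood at 13.6, 16.0, 1.37, 0 and 2.66 TPM in the DsRed arm and at 16.1, 7.41, 0.63, 0.74 and 0.88 TPM in the FoxO6 arm. Both courses were high on days 0 and 1 and low from day 3, where no library had more than 17 reads. The control library of day 5 had 0 reads and the FoxO6 library of that day had 5, a difference not detectable at this depth. Day 7 against day 0, fitted over both arms, gave a log2 change of -2.98 (SE 0.49, adjusted p = 0.00139, edgeR). The Flt1 arm shift came to -0.28 (SE 0.35, adjusted p = 0.666, edgeR). On day 1 the TPM differed 2.16-fold but the share of reads only 1.33-fold (0.855 to 2.07), with an effective length of 4043 bases in the control library and 6563 bases in the FoxO6 library. On day 7 the control share was 2.84-fold higher (1.01 to 9.85), from 17 and 5 reads, and this was the only day whose interval left out 1.

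Set against each other, Kdr and Flt1 changed places over the course. Kdr made up 13.4%, 40.3%, 85.7%, 100% and 31.6% of their summed TPM in the DsRed arm and 9.53%, 58.8%, 98.6%, 98.1% and 95.9% in the FoxO6 arm. The control value on day 5 rests on 7 Kdr reads and 0 Flt1 reads. On day 7, the sum of the pair was 3.89 TPM in the control and 21.6 TPM with FoxO6, and Kdr was the lesser of the pair in the control and the greater with FoxO6.

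**Figure D2:**
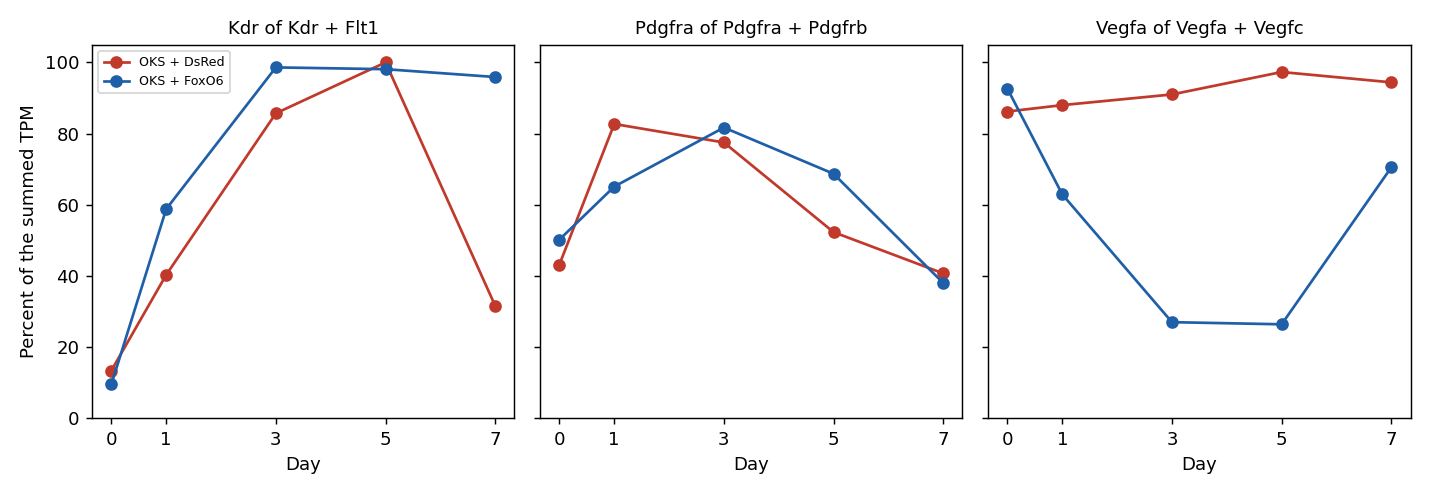
Percent of the summed TPM of a pair of genes (y axis) against day (x axis), 1 point per library, for Kdr of Kdr and Flt1, Pdgfra of Pdgfra and Pdgfrb, and Vegfa of Vegfa and Vegfc, with OKS + DsRed in red and OKS + FoxO6 in blue. The Vegfa share drops to 26.4% on day 5 with FoxO6 while the control stays at 86.2% or above, and the arms part on Kdr on day 7, at 31.6% and 95.9%.

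Nrp1 and Nrp2 encode the neuropilins, co-receptors for VEGF ligands and for class 3 semaphorins. Nrp2 lay at bases 62703285 to 62818695 of chromosome 1 (plus strand) and was the member with the highest TPM from day 1 on in both arms. It stood at 40.5, 114, 224, 234 and 325 TPM in the DsRed arm and at 32.2, 48.8, 83.2, 84.4 and 73.2 TPM in the FoxO6 arm. The control values were higher on each later day, whereas the FoxO6 values stayed between 73.2 and 84.4 TPM from day 3 on. In share of reads the control was 2.33-fold higher on day 1 (2.0 to 2.72) and 3.93-fold higher on day 7 (3.54 to 4.38). The arm shift was -1.37 (SE 0.18, adjusted p = 0.000711, edgeR), and day 7 against day 0 was 2.12 (SE 0.29, adjusted p = 0.000385, edgeR). With up to 2002 reads in a library it is the best counted member.

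Nrp1 lay at bases 128358604 to 128503363 of chromosome 8 (plus strand) and went the other way over time. It stood at 19.7, 20.6, 12.4, 4.54 and 5.53 TPM in the DsRed arm and at 23.8, 13.2, 10.7, 4.47 and 3.79 TPM in the FoxO6 arm. The ranges of the arms overlapped, and day 1 was the only day on which the interval of the ratio left out 1, with the control 1.57-fold higher in share of reads (1.02 to 2.43). The arm shift over all days was -0.25 (SE 0.21, adjusted p = 0.5, edgeR). Day 7 against day 0 was -2.22 (SE 0.33, adjusted p = 0.000692, edgeR). Nrp2 went from 67.3% to 98.3% of the summed neuropilin TPM between days 0 and 7 in the control and from 57.5% to 95.1% with FoxO6.

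Pdgfa, a ligand that binds the Pdgfra receptor, lay at bases 138976014 to 138997370 of chromosome 5 (minus strand) and was the steadiest member. It stood at 80.1, 67.2, 96.4, 74.8 and 82.2 TPM in the DsRed arm and at 30.9, 30.9, 47.2, 33.9 and 52.1 TPM in the FoxO6 arm. Every FoxO6 value lay below every control value. The control share of reads was between 1.96-fold higher on day 7 (1.44 to 2.69) and 2.5-fold higher on day 5 (1.8 to 3.51). Its arm shift came to -1.17 (SE 0.13, adjusted p = 0.000368, edgeR), and it passed under all 11 alternatives tried. The difference was already there on day 0, and day 7 against day 0 gave 0.30 (SE 0.21, adjusted p = 0.364, edgeR).

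Pdgfc, a further ligand of the same receptor, lay at bases 81036416 to 81214040 of chromosome 3 (plus strand). It stood at 16.1, 5.73, 2.77, 6.5 and 3.75 TPM in the DsRed arm and at 10.2, 3.55, 2.37, 5.14 and 2.93 TPM in the FoxO6 arm. The FoxO6 value was the lower one on each of the 5 days, which also held for 8.53% of genes whose mean TPM reached 1. The arm shift was -0.46 (SE 0.29, adjusted p = 0.345, edgeR) and did not pass. Day 7 against day 0 was -2.02 (SE 0.43, adjusted p = 0.00679, edgeR), with the largest part of the drop before day 1 in both arms.

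Pdgfra, the receptor that marks many mesenchymal cells, lay at bases 75152292 to 75198215 of chromosome 5 (plus strand). It stood at 16.5, 20.1, 5.31, 2.7 and 3.83 TPM in the DsRed arm and at 35.2, 25.4, 18.9, 7.3 and 3.58 TPM in the FoxO6 arm. The FoxO6 level was higher from day 0 to day 5 and the arms met on day 7. In share of reads the FoxO6 level was 2.08-fold higher on day 0 (1.55 to 2.82), 1.41-fold on day 1 (1.03 to 1.92), 3.73-fold on day 3 (2.29 to 6.36), 2.64-fold on day 5 (1.38 to 5.45) and 1.03-fold on day 7 (0.515 to 2.02). Its arm shift came to 0.96 (SE 0.24, adjusted p = 0.0234, edgeR). It did not pass without day 0 (0.94, adjusted p = 0.0623), without day 3 (0.74, adjusted p = 0.0963) or without day 5 (0.89, adjusted p = 0.0867). Day 7 against day 0 was -2.66 (SE 0.39, adjusted p = 0.000663, edgeR).

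Pdgfrb, the receptor best known from pericytes and smooth muscle, stood at 21.7, 4.2, 1.54, 2.46 and 5.58 TPM in the DsRed arm and at 34.9, 13.7, 4.22, 3.32 and 5.83 TPM in the FoxO6 arm. The FoxO6 value was the higher one on all 5 days, as it was for 9.76% of genes whose mean TPM reached 1. The gap was widest on day 1, at 3.26-fold in share of reads (1.88 to 5.96), and on days 5 and 7 the interval included 1. The arm shift was 0.80 (SE 0.25, adjusted p = 0.057, edgeR), just short of the threshold. It passed under 3 of 11 alternatives, at 0.0314 without day 7, at 0.00926 with no filter on low counts and at 0.0459 with a length correction. Under the other 8 it did not pass, with 0.124 for DESeq2, 0.156 without day 3, 0.196 without day 1 (shift 0.56) and 0.737 with no day term. The pass with no filter is weak, since the adjusted p of the called members also fell far there while their shifts hardly moved. Day 7 against day 0 was -2.23 (SE 0.35, adjusted p = 0.00101, edgeR).

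Pdgfa was thus lower and its receptor Pdgfra higher with FoxO6, while Pdgfc and Pdgfrb did not pass. The share of Pdgfra in the summed TPM of both receptors was highest on day 1 in the control and on day 3 with FoxO6. It was 43.2% on day 0, 82.7% on day 1 and 40.7% on day 7 in the control, and 50.2% on day 0, 81.7% on day 3 and 38.0% on day 7 with FoxO6. Their summed TPM was 38.2 on day 0 and 9.41 on day 7 in the control, and 70.2 and 9.41 with FoxO6.

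**Figure D3:**
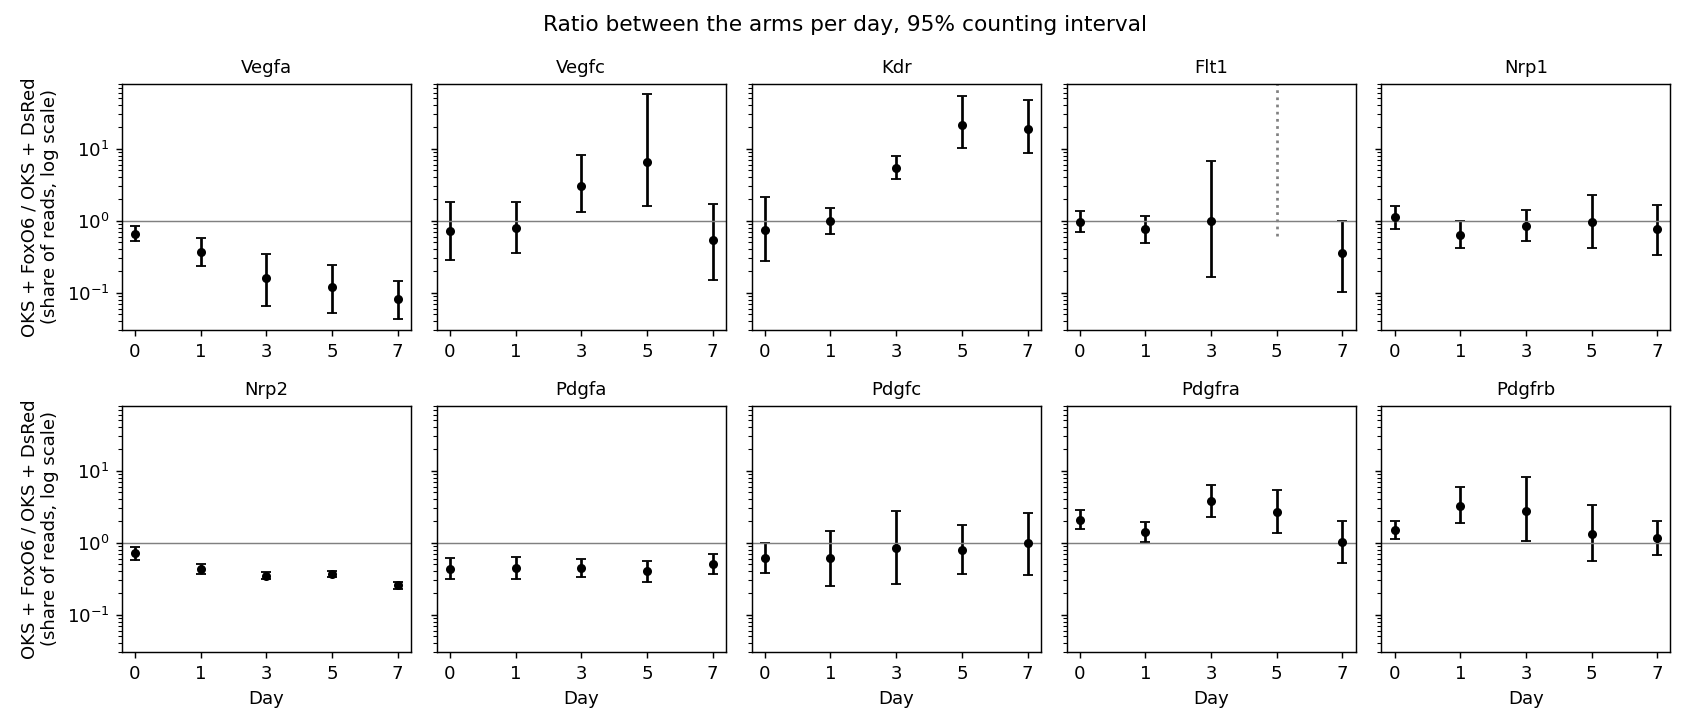
Ratio of the share of reads in OKS + FoxO6 to that in OKS + DsRed (y axis, log scale) per day (x axis, days equally spaced), 1 panel per gene, with bars for the 95% counting interval and a line at 1. The Kdr ratio climbs to 21.5 on day 5, the Vegfa ratio descends to 0.0823 on day 7, the Pdgfa ratio stays between 0.4 and 0.511, and the dotted line for Flt1 on day 5 marks a control count of 0, where no ratio can be given.

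Day by day, past a 2-fold threshold, that is a difference of more than 1 in log2(TPM + 1), the 10 genes gave 10 higher and 14 lower values among 50 gene and day pairs, against 9.09% higher and 11.1% lower among all such pairs for genes whose mean TPM reached 1. On day 0, 1 member was past 2-fold higher and 2 were lower, against 10.6% and 6.41% of all genes. On day 1 it was 1 and 4, against 8.1% and 9.43%. On day 3 it was 4 and 3, against 8.21% and 11.8%, and on day 5 it was 3 and 3, against 10.3% and 11.4%. On day 7 it was 1 and 2, against 8.3% and 16.5%. The median of all genes was 0.09 on day 0 and -0.14 on day 7 on this scale. The day 0 value of Pdgfra, 1.05, falls to 0.96 once that median is taken off, and the day 1 value of Flt1, -1.02, and the day 0 value of Vegfc, -1.22, fall to -0.41 and -0.46 on CPM, which scales reads by depth but not by length. On CPM the Flt1 values of day 5, 0.80, and day 7, -0.96, move past 2-fold, to 1.59 and -1.22.

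The change of the arm difference with time was widest for Kdr and Vegfa. A fit with a straight line in day number for each arm called 0 of 10 members and 0.0% of all genes with edgeR, with 2 members and 1035 genes at an unadjusted p under 0.05 and 33 genes called with DESeq2. These 2 members were Kdr, whose arm difference grew by 0.71 per day on the log2 scale (SE 0.30, adjusted p = 0.574, edgeR), and Vegfa, at -0.54 per day (SE 0.21, adjusted p = 0.544, edgeR). On simulated data for this comparison that fit recovered 0 of 200 genes changed 4-fold among 12212 genes when the real courses over the days were kept. A fit with day as a factor, added after seeing this, recovered 60 of 200 and called 1.6% of all genes. The fit with day as a factor gave 0.83 per day for Kdr (SE 0.11, adjusted p = 0.00296, edgeR) and -0.43 per day for Vegfa (SE 0.07, adjusted p = 0.0067, edgeR), and called no other member. The next was Nrp2 at -0.16 per day (SE 0.04, adjusted p = 0.0852, edgeR).

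Over the course itself, fitted in both arms together, 7 of 10 members changed over the days, against 20% of genes tested. Between day 0 and day 7, 6 of 10 differed, against 21.8% of genes tested. Of these, 1 was higher and 5 were lower, against 11.7% and 10.1%. Nrp2 was the member that rose, and Flt1, Nrp1, Pdgfc, Pdgfra and Pdgfrb fell. The median log2 change was -1.73 over the 10 genes and 0.03 over all. Vegfa gave -1.44 (SE 0.52, adjusted p = 0.0727, edgeR), with values of 0.01 in the control arm and -3.12 in the FoxO6 arm on the log2(TPM + 1) scale. It passed with DESeq2 (-1.67, adjusted p = 0.0191) and with no filter on low counts in edgeR (-1.46, adjusted p = 1.64e-05), each of which made 6 members lower, and not under the other 6 alternatives. Kdr gave 2.45 (SE 1.07, adjusted p = 0.134, edgeR), from -0.48 in the control and 3.01 with FoxO6. It passed with no filter in edgeR (2.42, adjusted p = 3.06e-07) but not under the other 7 alternatives, DESeq2 giving 1.40 (adjusted p = 0.607). With no filter the fitted changes of Vegfa and Kdr hardly moved while the adjusted p fell far, so a pass under that setting is weak. For both genes the pooled change is a mean of unlike courses. The fibroblast markers fell over the same days, with 10 of 12 lower on day 7, and the mural cell markers with 5 of 8 lower. Their part in the fall of the PDGF receptors was not tested.

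**Figure D4:**
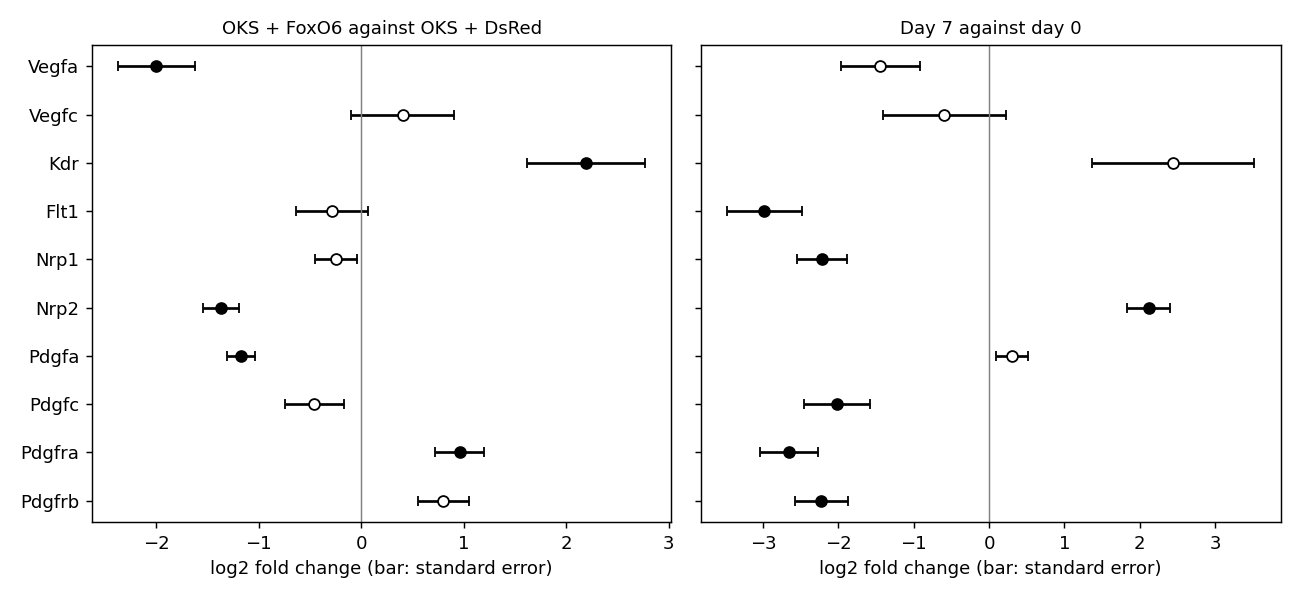
Fitted log2 fold changes (x axis) of the 10 genes (y axis) with standard errors as bars, for OKS + FoxO6 against OKS + DsRed over the 5 days on the left and for day 7 against day 0 over both arms on the right. Filled points have an adjusted p under 0.05, 5 on the left and 6 on the right, and Nrp2 is lower on the left, at -1.37, and higher on the right, at 2.12.

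The other genes of the pathways were taken from lists. Of 7 further VEGF and PDGF family genes, 6 were tested and 1 was higher and 1 lower in the arm shift, against 6.63% and 6.89% of all genes. Vegfd, a ligand close to Vegfc in structure, was higher with FoxO6. It stood at 10.1, 7.31, 15.2, 11.8 and 9.45 TPM in the DsRed arm and at 33.4, 54.7, 113, 89.7 and 82.6 TPM in the FoxO6 arm, so that the arms did not overlap. Its arm shift was 2.72 (SE 0.21, adjusted p = 6.51e-05, edgeR). Pdgfrl, a receptor-like gene, was lower, at -0.83 (SE 0.21, adjusted p = 0.0258, edgeR). Vegfb, a further ligand, did not pass, at 0.635 (SE 0.196, adjusted p = 0.0551, edgeR). On each of the 5 days the FoxO6 arm held less Vegfa and more Vegfd than the control arm.

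Among the class III receptor tyrosine kinases related to the PDGF receptors, 1 of 3 was tested, and Flt3 was at 0 in all libraries. Kit, the receptor of stem cell factor, is the 1 coding gene in the 735 kb between Pdgfra and Kdr. It stood at 0, 0.42, 10.1, 26.0 and 27.6 TPM in the DsRed arm and at 0.35, 5.46, 5.27, 11.8 and 13.1 TPM in the FoxO6 arm. It rose between day 0 and day 7, by a fitted 6.00 on the log2 scale (SE 0.83, adjusted p = 0.000459, edgeR), a size that depends on the prior count since the control library of day 0 had 0 reads. Its arm shift was -0.97 (SE 0.38, adjusted p = 0.12, edgeR). The 3 neighbours thus took 3 courses, with Pdgfra lower and Kit higher on day 7 than on day 0, and Kdr high from day 3 in the FoxO6 arm.

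Of 12 class 3 semaphorins and plexins, which share the neuropilins with VEGF, 9 were tested. Sema3b was lower with FoxO6, at -1.54 (SE 0.25, adjusted p = 0.00267, edgeR), and Sema3e was higher, at 0.65 (SE 0.17, adjusted p = 0.0327, edgeR), against 6.89% lower and 6.63% higher of all genes. DESeq2 called none of the 9 higher. All 16 signal relays below these receptors were tested, and 2 were higher and 0 lower, against 6.63% and 6.89% of all genes. These were the PI3-kinase subunits Pik3ca and Pik3cb, at 0.52 and 0.56, and DESeq2 called neither. The list's median was 0.07.

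Of 9 angiopoietins, Notch ligands and related vessel genes, 7 were tested and 3 were lower with FoxO6, against 6.89% of all genes, with a median of -0.68. They were Acvrl1, a receptor of the TGF-beta family (-2.03), its co-receptor Eng (-0.81) and the ephrin Efnb2 (-0.69). Of 16 hypoxia response genes, to which Vegfa itself belongs by its known control, 14 were tested and 4 were lower and 0 higher, against 6.89% and 6.63% of all genes, with a median of -0.47. They were the prolyl hydroxylases Egln3 (-2.45) and Egln1 (-0.49) and the glycolysis genes Pfkfb3 (-0.70) and Pgk1 (-0.69). Egln3 stood at 14.9, 2.54, 8.96, 31.4 and 126 TPM in the DsRed arm and at 4.19, 4.21, 3.16, 4.93 and 6.01 TPM in the FoxO6 arm. DESeq2 called 3 of the 14 lower.

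Among cell type lists, 3 of 12 fibroblast markers were higher with FoxO6 and 2 were lower, against 6.63% and 6.89% of all genes, with Dcn (1.16) and Twist1 (1.00) leading the first and Prrx1 (-0.78) the second. DESeq2 turned this balance, with 2 higher and 3 lower. Of 8 mural cell markers tested, 3 were lower and 0 higher, against 6.89% and 6.63% of all genes, namely Rgs5 (-2.32), Cspg4 (-1.19) and Mcam (-1.18). The macrophage list had 1 gene of 10 with enough reads and none called by edgeR or DESeq2. The summed level of that list was 14.1 to 59.4 TPM in the DsRed arm and 18.0 to 30.8 TPM in the FoxO6 arm.

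The genes whose pattern over the 10 libraries was most like that of a member were sought among 10589 genes by Pearson's r of log2(TPM + 1), as a description over libraries that share arm and day. For Kdr they were Prrt4 (r = 0.96), Trappc3 (0.95) and Atg9a (0.95). Prrt4 stood between 0.31 and 171 TPM, with its highest value in the FoxO6 library of day 3, as for Kdr. For Vegfa they were Fam129a (0.96), Nol7 (0.96) and Fam84b (0.96). For Pdgfra they were Reck (0.99), Itpripl2 (0.98) and Clip2 (0.98), and for Pdgfrb they were Rars (0.97), Fth1 (0.95) and Ssr4 (0.95). Kdr and Vegfa themselves had r = -0.90.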

How the data were processed

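RNA was sequenced from 10 libraries, 1 per arm and day. The authors aligned reads with Bowtie2 to GENCODE M13 transcripts (mm10) and estimated expected counts, effective lengths and TPM per gene with RSEM, and both expected counts and TPM were used here as deposited. Versions of these tools are not given in the sources used here, and the labels and the methods name different library kits. RSEM splits reads that fit several transcripts, and its effective length follows the transcripts it infers, so TPM of genes with few reads can move with that length.

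Expected counts were rounded to whole numbers. Genes were kept by filterByExpr (12212 genes), scaled by TMM and tested with edgeR 4.0.16 in R 4.3.3, with Benjamini-Hochberg adjustment over all of them. The arm shift used day as a factor plus arm, the change over the days used the same fit, and the slope used arm, day number and their product. DESeq2 1.42.0 was an alternative. The common dispersion was 0.0367. On simulated counts with 200 of 12212 genes changed 4-fold, the arm shift recovered 194 with 7 false calls, day 7 against day 0 recovered 183 with 10, and the change over the days 180 with 11.

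Differences per day used log2(TPM + 1) with a pseudocount of 1, with no test, for genes whose mean TPM reached 1. Ratios of read shares have exact 95% Clopper-Pearson intervals. The total counts of 1208379 to 2225750 reads limit precision for genes with few reads. The table of the whole series holds 48476 of the 50600 genes, with the same counts for those. Gene symbols were taken from it, and it was not used further.

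The genes named are the 10 members, Foxo6, up to 4 genes per list past the threshold in the arm shift, ordered by the size of the change, or else in the change over the days, and the 3 genes most like Kdr, Pdgfra, Pdgfrb and Vegfa among those whose mean TPM reached 5. The endothelial markers with few reads, Vegfb, and genes at 0 were named after their values were seen. The members and lists were chosen with earlier results of these data known.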

Additional observations from a re-analysis of the deposited data

Results flagged for a closer look

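The Vegfc difference between the arms was past 2-fold in opposite directions on 2 days, at -1.22 on day 0 and 2.06 on day 5 in log2(TPM + 1). The difference between these days was not tested. It rests on 10 and 13 reads on day 0 and on 2 and 20 on day 5, and on CPM the day 0 value was -0.46. The arm difference changed with day for Kdr, by 0.83 per day, and for Vegfa, by -0.43 per day, in the fit with day as a factor that was added after seeing the data. With a straight line in day for both arms, neither passed.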

How the results depend on the processing

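No value of a member changed direction past its threshold under the alternatives run. Leaving day out as a term (no replicate block) took the arm shift from 1651 to 162 genes called and the members from 2 higher and 3 lower to 0 higher and 1 lower, with log2 shifts of -1.55 for Vegfa (adjusted p = 0.366), 2.25 for Kdr (0.2), -1.54 for Nrp2 (0.142) and 0.97 for Pdgfra (0.52). Pairing of the arms by day comes from the labels' days. DESeq2 called 1187 genes and 1 member higher. Leaving out each day in turn gave 705 to 1640 genes, 0 to 3 members higher and 3 members lower. For day 7 against day 0, leaving out the arm term gave 1283 in place of 2668 genes and 0 members higher, and no filter on low counts gave 2 members higher. For the change over the days, no filter gave 3804 in place of 2448 genes, leaving out each day gave 1113 to 2737 genes, and the members called were 4 to 8 in place of 7, the 4 without day 0. For the slope, 0 genes became 10 with no filter, 33 with DESeq2, 196 with day as a factor and 0 to 1 without a day, and 0 members became 2 with day as a factor. Of the 50 gene and day values, 47 kept their side of 2-fold with a pseudocount of 0.1 and 46 on CPM. Depth limits Vegfc, Flt1 and Pdgfc most, and with 1 library per arm and day no result here separates infections.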
